A study of Mus musculus with 9 samples.

Results

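The comparison set the skin of bleomycin-treated mice (BLM) against the skin of normal mice (NORMAL), with 3 libraries on each side, that is 6 of the 9 libraries in the series. It covered every gene that reached 1 FPKM or more in at least 3 of the 6 libraries, which left 13014 of the 55382 genes in the table. FPKM is a count of sequenced fragments scaled to transcript length and to the mapped fragments of the library. In the BLM group, female C57BL/6 mice had received bleomycin under the skin of the shaved back. The injections, each of 100 µL at 1 mg/mL, were given daily over 28 days. The series design then gives 7 days of PBS, while the sample labels give the treatment of these mice as none. In the NORMAL group, female C57BL/6 mice had received PBS. The age of the mice and the C57BL/6 substrain were not given in the sources used here. Each library came from whole skin dissected under a microscope. No source states whether the libraries of a group are from different mice, so the p-values measure only the spread between these libraries, which may be technical. Libraries are numbered as in their titles, and the library of each group whose title has no number is called number 3.

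Bleomycin is a glycopeptide that binds metal ions and oxygen and breaks DNA, and repeated injection into mouse skin is a common model of the skin fibrosis of systemic sclerosis. Whole mouse back skin also holds hair follicles, which pass together through growth (anagen), regression (catagen) and rest (telogen). In anagen, matrix cells at the base of the follicle divide, sonic hedgehog and WNT ligands are made in the epithelium, the hair shaft and the inner root sheath are built, and melanocytes of the bulb make pigment. Below the dermis lies a thin sheet of striated muscle, the panniculus carnosus, which is carried in varying amounts into a skin sample. In bulk tissue, a higher transcript level from more cells of a type and from more RNA per cell cannot be told apart.

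The clearest difference lay in genes of dividing cells and of the growing follicle. Of 47 tested mitosis and spindle genes, 46 were higher in BLM skin, and in 38 all BLM libraries lay above all NORMAL libraries. Among all genes tested, 2.74% lay above in this way and 7.65% lay below. For 11 of the 38 the filter fixed this in advance, since they were under 1 FPKM in every NORMAL library. Metallothioneins were also higher in BLM skin, while genes of fast muscle, glycolysis and the clock were lower. The sequences before the transcription starts of 4 of these genes are shown here because their members moved together and motifs could be counted in them. They are the 250 bases before the RefSeq start on GRCm38.p6, 5′ to 3′ on the strand of the gene. In the first 3, the capitals mark the motif CCAAT and the motif TTTGAA or TTCGAA, each on either strand. In Mt2, they mark TGCACNC or TGCGCNC, the core of the metal response element, on either strand.
Cdk1, chr10:69352913-69353162, minus strand: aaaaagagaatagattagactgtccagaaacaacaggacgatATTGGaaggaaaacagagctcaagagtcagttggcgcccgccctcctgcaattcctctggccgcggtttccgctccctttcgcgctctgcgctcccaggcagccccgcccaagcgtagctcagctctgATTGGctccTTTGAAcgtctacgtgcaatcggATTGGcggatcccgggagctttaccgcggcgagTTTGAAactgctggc
Ccnb2, chr9:70421555-70421804, minus strand: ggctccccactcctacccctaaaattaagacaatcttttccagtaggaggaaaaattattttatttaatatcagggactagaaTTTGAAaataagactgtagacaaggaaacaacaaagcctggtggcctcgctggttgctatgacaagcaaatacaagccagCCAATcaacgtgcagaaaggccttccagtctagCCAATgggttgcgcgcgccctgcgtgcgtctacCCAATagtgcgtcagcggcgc
Cdc20, chr4:118437344-118437593, minus strand: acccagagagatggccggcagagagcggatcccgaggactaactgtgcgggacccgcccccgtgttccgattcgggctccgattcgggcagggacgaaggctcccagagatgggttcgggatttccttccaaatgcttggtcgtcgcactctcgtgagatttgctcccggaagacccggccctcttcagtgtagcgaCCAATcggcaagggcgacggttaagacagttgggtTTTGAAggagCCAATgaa
Mt2, chr8:94172368-94172617, plus strand: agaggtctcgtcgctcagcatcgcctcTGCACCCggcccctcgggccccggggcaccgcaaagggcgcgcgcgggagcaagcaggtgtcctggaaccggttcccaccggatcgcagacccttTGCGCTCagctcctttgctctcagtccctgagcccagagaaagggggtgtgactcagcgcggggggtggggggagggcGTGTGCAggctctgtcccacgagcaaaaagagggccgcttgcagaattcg

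CCAAT boxes, bound by NF-Y, and the cell cycle homology region, of which TTTGAA and TTCGAA are core forms, are known from promoters of genes expressed late in the cell cycle. Cdk1 held 3 CCAAT matches and 2 matches of the other motif, Ccnb2 held 3 and 1, and Cdc20 held 2 and 1. Of the 47 tested mitosis genes, 40 had a promoter in the RefSeq table. CCAAT was found in 30 of these 40 genes, or 75.0%. It was found in 40.3% of the 9196 tested genes with a promoter and in 37.5% of all 27025 genes with a promoter. TTTGAA or TTCGAA was found in 18 of the 40, or 45%, against 14.7% of tested genes and 19.6% of all genes with a promoter. Both motifs in the same window were found in 17 of the 40, or 42.5%, against 5.71% of tested genes. Among 28 tested DNA replication genes with a promoter, CCAAT was found in 53.6% and TTTGAA or TTCGAA in 25.0%. The motifs do not overlap each other in letters, and a match describes the sequence alone. TGCACNC or TGCGCNC stood 3 times in the Mt2 window, and the window of Mt1 held 1 match. It was found in 3 of 4 metallothionein genes, against 33.5% of tested genes with a promoter and 23.8% of all genes with a promoter. Mitosis genes held it in 32.5%, and it also stands, unmarked, in the Cdk1 and Ccnb2 windows above. The GENCODE start of Mt2 lies 46 bases downstream of the RefSeq start, so the window and its count depend on the annotation used.

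**Figure D1:**
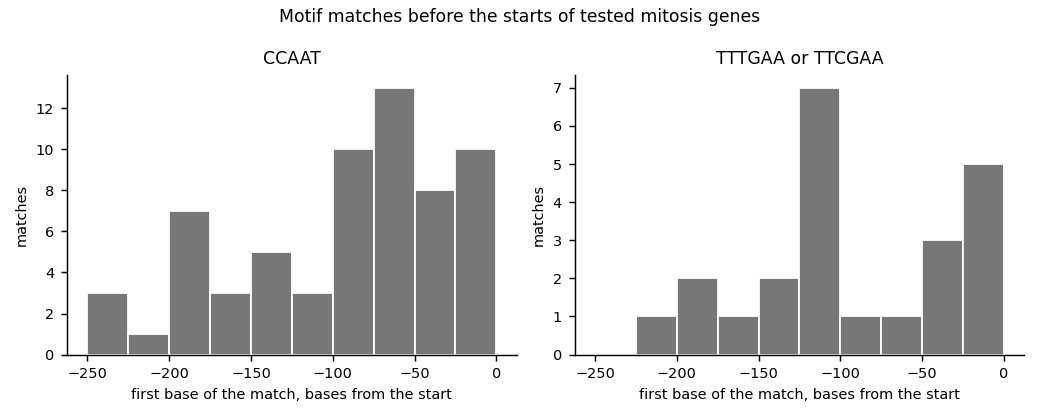
Number of matches (vertical axis) by the distance of the first base of the match from the transcription start, in bases (horizontal axis, bins of 25 bases), for CCAAT and for TTTGAA or TTCGAA before the starts of tested mitosis genes; where a gene had more than 1 promoter, only the first was used. Of 63 CCAAT matches, 41 began within the last 100 bases before the start, and of 23 matches of the other motif 10 did.

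Differences were tested with limma on log2(FPKM + 1), and log2 changes are on that scale, which understates the change of low genes. The standard error after ± is that of the paired test, described next, for a gene that passed it, and otherwise that of the test without pairing. Without regard to the library numbers, no gene passed a Benjamini-Hochberg adjusted p of 0.05 (0.0% of genes, lowest adjusted p 0.117), while 895 had an unadjusted p below 0.05 (398 higher in BLM, 3.06%, and 497 lower, 3.82%). Libraries with the same number deviated from their group means together, weakly in pair 1 (r = 0.192, against 0.146 for BLM 1 with NORMAL 3). For this reason a second fit used the number as a block and is called the paired test. The pairing thus rests on these same data. In the paired test 155 genes passed (1.19%), of which 132 rose in BLM skin (1.01% of genes tested) and 23 fell (0.177%). With equal totals the paired test called 449 genes, 185 higher and 264 lower, so that the balance turned to lower genes, and it still called all 155 in the same direction. With 1 pair left out, it called no gene without pair 1, 1 gene without pair 2 and 957 genes without pair 3, of which 64 were among the 155. Of the 132 genes that rose, 46 were under 1 FPKM in every NORMAL library and so entered the test only through BLM, where they were high. For such genes the filter fixed in advance that the groups did not overlap. In the other direction, 53 tested genes were under 1 FPKM in every BLM library and entered only through NORMAL. Rose and fell are used here only of genes that passed the paired test, and none of them passed without the block. At the thresholds of the study, which ask for an unadjusted p below 0.05 and a change larger than 1 on the log2 scale, 378 genes were higher (2.9%) and 469 lower (3.6%). That split, 44.6% higher, was 33.3% when the libraries were scaled to equal totals, 66.5% with quantile normalization, 62.4% with median-ratio scaling and 33.4% after rescaling without mitochondrial, ribosomal and muscle transcripts. Over all genes the median change was -0.03, or -0.25 with equal totals.

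The libraries of a group were not alike, and this touches most of the results. NORMAL 3 stood apart from NORMAL 1 and 2 in hair and muscle genes, and 553 genes passed the unpaired test without it (291 higher and 262 lower). The split was not confined to those genes. Over all genes tested, the rank correlation of NORMAL 3 was 0.884 with BLM 3 and 0.845 with BLM 1. It was 0.77 with NORMAL 1 and 0.669 with NORMAL 2. NORMAL 2 was nearest to NORMAL 1 (0.863), then to BLM 2 (0.812). BLM 1 and BLM 3 had the highest value, 0.895. The libraries thus did not group by treatment alone. Muscle genes took 2.86, 1.65 and 1.88% of all FPKM in BLM libraries 1, 2 and 3, against 18.5, 11.5 and 2.99% in the NORMAL libraries. Mitochondrial transcripts took 37.5, 50.9 and 27.8% in BLM and 21.5, 19.1 and 22.8% in NORMAL. Of the genes in the table, 11238 to 13418 reached 1 FPKM in a BLM library, fewest in BLM 2, and 11536 to 13461 in a NORMAL library. Both libraries numbered 2 held Rbp4, a plasma retinol carrier made in liver and fat, at 653 FPKM in BLM and 2322 FPKM in NORMAL, against at most 5.23 FPKM in the other 4. Liver and plasma genes, Rbp4 included, summed to 1120 FPKM in BLM 2 and 4237 FPKM in NORMAL 2, against 25.0 to 119 FPKM in the other 4. Ribosomal RNA took 10.7% of all FPKM in NORMAL 2 and at most 0.711% in any other library.

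**Figure D2:**
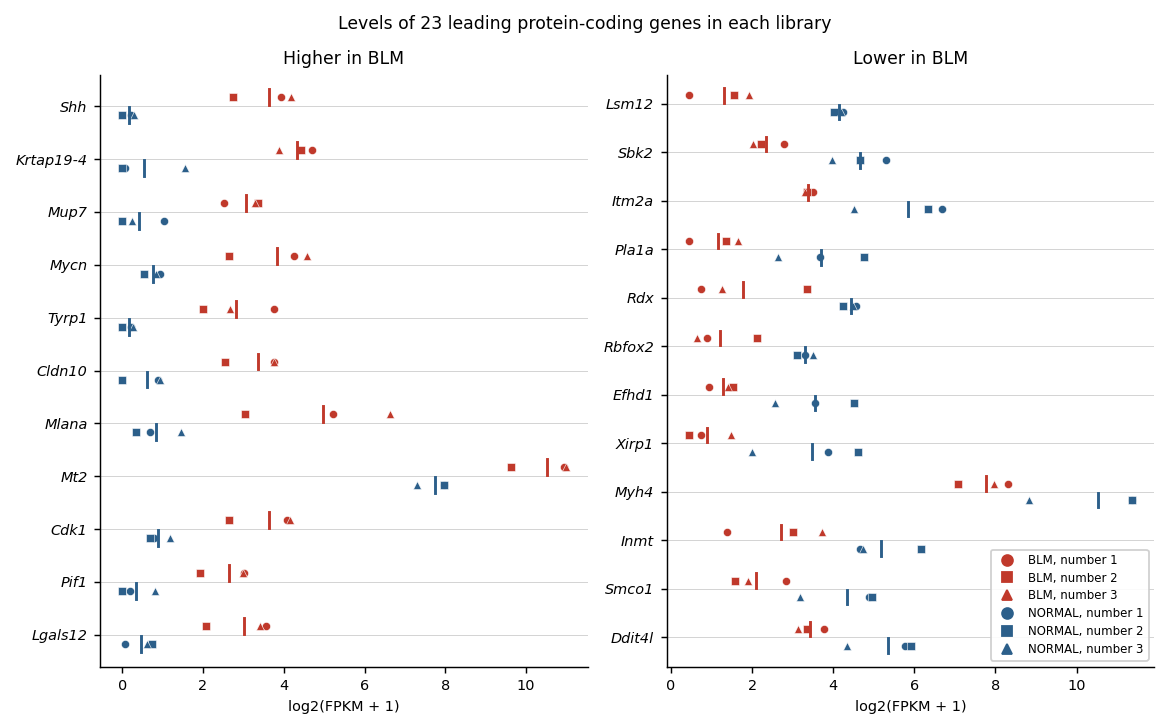
Level of 23 leading protein-coding genes in each library, as log2(FPKM + 1) on the horizontal axis; BLM libraries are red and drawn above the NORMAL libraries in blue, symbols give the library number, and vertical bars are group means. For each gene the groups do not overlap, which was a condition for its choice; the BLM 2 squares are the lowest BLM values for most genes higher in BLM, and the NORMAL 3 triangles are nearest to BLM for most muscle genes.

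Genes of mitosis were the group with the most calls. Of 47 tested members, 26 rose and none fell in the paired test; 11 members, 6 of them among the 26, entered only through BLM. Their median log2 change was 1.58, against -0.03 over all genes, and it was 1.91, 1.17 and 1.76 within pairs 1, 2 and 3. Cdk1, the kinase that drives entry into mitosis, stood at 15.9, 5.25 and 16.8 FPKM in BLM skin, against 0.72, 0.60 and 1.25 FPKM in NORMAL skin. BLM 2 was the lowest BLM library and was still above every NORMAL library. Cdk1 rose by 2.75 ± 0.35 (SE) on the log2 scale (adjusted p = 0.0195 in the paired test, 0.185 without the block).

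Cdc20, an activator of the anaphase-promoting complex, had 35.1, 8.54 and 48.3 FPKM in BLM libraries, against 2.46, 1.23 and 6.70 FPKM in NORMAL libraries, and rose by 2.72 ± 0.36. Ccnb2, a B-type cyclin that partners Cdk1, had 16.4, 6.93 and 36.4 FPKM in BLM and 2.12, 0.85 and 4.59 FPKM in NORMAL, and rose by 2.44 ± 0.32. In both genes BLM 2 came closest to NORMAL 3, and the groups stayed apart. Ndc80, a kinetochore protein, was lower in level but steadier in NORMAL skin, with 4.58, 2.26 and 2.68 FPKM in BLM against 0.24, 0.23 and 0.25 FPKM in NORMAL, and it rose by 1.71 ± 0.28. It entered the test only through BLM. Plk1 and Aurkb, both mitotic kinases, rose by 2.23 ± 0.33 and 1.95 ± 0.31, and Top2a, which untangles chromosomes, by 2.16 ± 0.34. The 1 member that was lower was Pttg1 (securin), at 17.4, 14.7 and 17.2 FPKM in BLM and 30.7, 23.8 and 19.0 FPKM in NORMAL, with adjusted p = 0.502 in the paired test. Without NORMAL 3, 27 mitosis genes passed the unpaired test as higher, where 291 of 12053 genes did, and 45 lay wholly above, where 14.8% of all genes did. Without both libraries numbered 2, 44 lay wholly above, where 20.5% of all genes did, and no gene passed. Leaving out libraries can only add to the number wholly above. NORMAL 3 had the highest NORMAL mean of these genes (1.55, against 1.03 and 0.68), so its removal widened the difference.

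DNA replication genes were higher without exception among the 35 tested, with a smaller median change of 0.88, and 3 rose in the paired test. These were Uhrf1, which keeps DNA methylation through replication, E2f2, a transcription factor of the cell cycle, and Tk1, thymidine kinase. Uhrf1 had 23.5, 8.93 and 28.0 FPKM in BLM, against 3.52, 1.85 and 4.32 FPKM in NORMAL (log2 change 2.23 ± 0.33, adjusted p = 0.0254 in the paired test). Pcna, the sliding clamp, had 40.7, 18.1 and 53.5 FPKM in BLM and 17.01, 16.8 and 22.8 FPKM in NORMAL, so that BLM 2 lay among the NORMAL libraries. Mcm2, a subunit of the replicative helicase, overlapped too (log2 change 0.86 ± 0.53). Of the 132 genes that rose, 29 were on the mitosis or replication lists. Others outside both lists were Cenpm of the kinetochore, Cks2, which binds cyclin-dependent kinases, Pclaf, which binds PCNA, and Stmn1, which destabilises microtubules, with log2 changes of 2.28 ± 0.31, 2.48 ± 0.37, 2.16 ± 0.36 and 2.34 ± 0.41; these 4 were named after their values were seen.

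**Figure D3:**
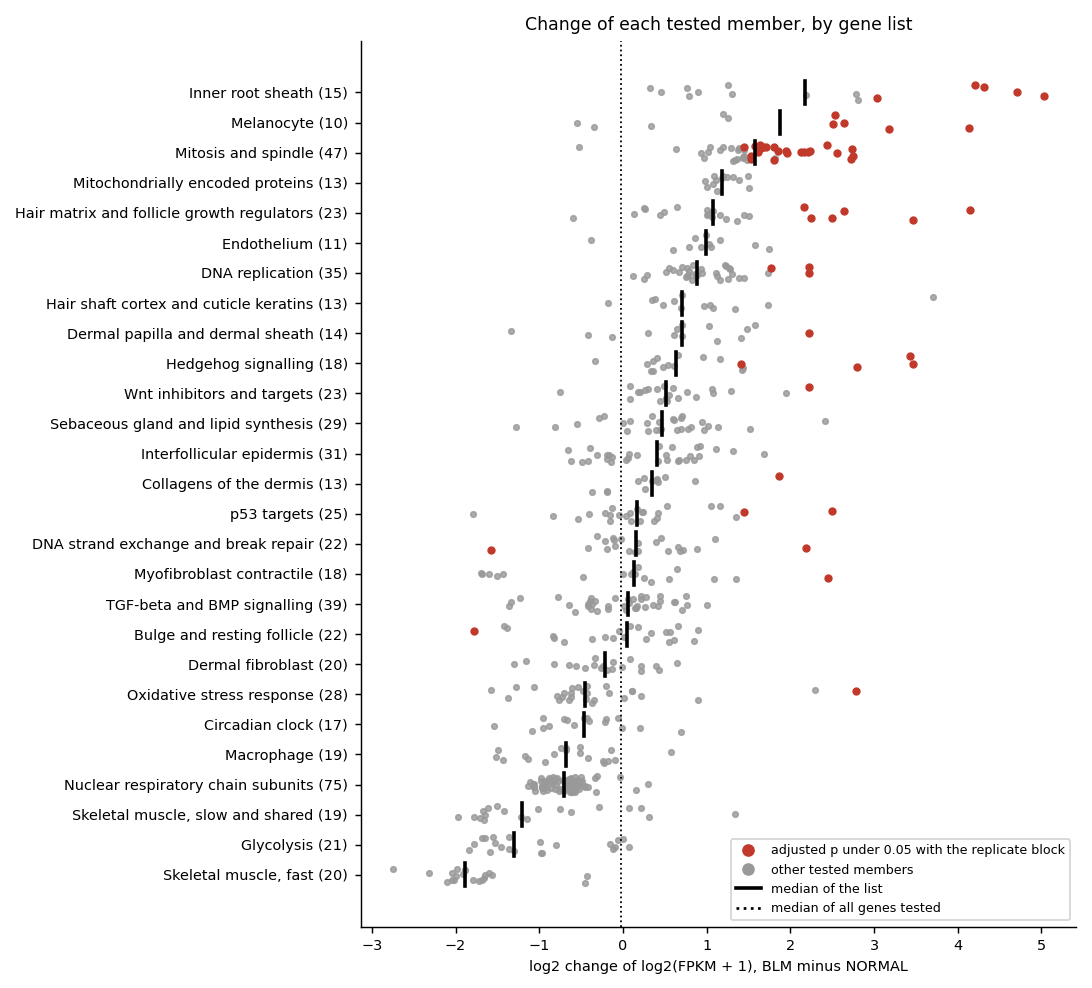
Log2 change of each tested member (points, BLM minus NORMAL, horizontal axis) by gene list, with the number tested in parentheses; black bars are list medians, the dotted line is the median of all genes (-0.03), and red points passed the paired test. Members of the inner root sheath, melanocyte and mitosis lists lie to the right, with medians of 2.18, 1.88 and 1.58, and those of fast muscle to the left, with a median of -1.89.

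In the hair follicle, the regulators of the matrix came with the sheath that surrounds the shaft. Of 23 tested matrix and growth regulators, 22 were higher (median 1.08) and 6 rose: Shh, Wnt10b, Dlx3, Dlx4, Msx1 and Msx2. Of the 23, 3 entered the test only through BLM, and 2 of these, Shh and Dlx4, rose. Dlx3, a homeobox factor needed for the hair shaft and inner root sheath, had 128, 38.2 and 164 FPKM in BLM against 1.23, 0.58 and 42.2 FPKM in NORMAL. NORMAL 3 thus exceeded BLM 2, and the groups overlapped. Dlx3 rose by 4.14 ± 0.63 in the paired test (adjusted p = 0.0279).

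All 15 tested inner root sheath genes were higher, with a median of 2.18, and 5 keratins of that sheath rose: Krt25, Krt27, Krt28, Krt71 and Krt73. Krt25 stood at 154, 35.1 and 226 FPKM in BLM and at 0.20, 0.45 and 40.0 FPKM in NORMAL. Krt73 was similar, with 108, 20.7 and 111 FPKM in BLM and 0.08, 0.00 and 30.4 FPKM in NORMAL. NORMAL 3 again lay above BLM 2 in both. BLM lay wholly above in 1 of the 15 genes (6.67%, against 2.74% of all genes). Once NORMAL 3 was left out, it did so in 11 (73.3%, against 14.8% of all genes). Leaving out a library can only add to such a count. NORMAL 3 was also the NORMAL library with the highest mean level of these genes (4.31, against 0.85 and 0.98). The 11 are thus no independent support. The median was 3.95, 1.84 and 0.99 within pairs 1, 2 and 3. Of 13 tested cortex and cuticle keratins, none passed, and their median was 1.73 and 0.60 within pairs 1 and 2 and -0.20 within pair 3. Krt35, a cortex and cuticle keratin, had 90.9, 9.62 and 94.9 FPKM in BLM and 0.13, 0.12 and 32.1 FPKM in NORMAL (adjusted p = 0.0501 in the paired test). Krt31, a cortex keratin, had 11.2, 0.57 and 24.03 FPKM in BLM against 0.18, 0.18 and 20.1 FPKM in NORMAL.

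The Krtap19 genes encode small proteins that pack between keratins of the shaft. Krtap19-1 had 5.13, 2.71 and 6.95 FPKM in BLM and 0.00, 0.00 and 0.65 FPKM in NORMAL, and Krtap19-1, Krtap19-2, Krtap19-3 and Krtap19-4 rose, by 2.18 to 3.80 on the log2 scale. Krtap19-1 entered the test only through BLM. Krtap19-5 stayed apart with 28.7, 24.8 and 34.3 FPKM in BLM against 0.04, 0.00 and 22.9 FPKM in NORMAL. Krtap19-9b did not, since NORMAL 3 was highest of all at 36.1 FPKM, against 12.2, 12.6 and 19.4 FPKM in BLM. These are near-identical neighbours on chromosome 16, so fragments may have been split between them, and each value is uncertain.

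**Figure D4:**
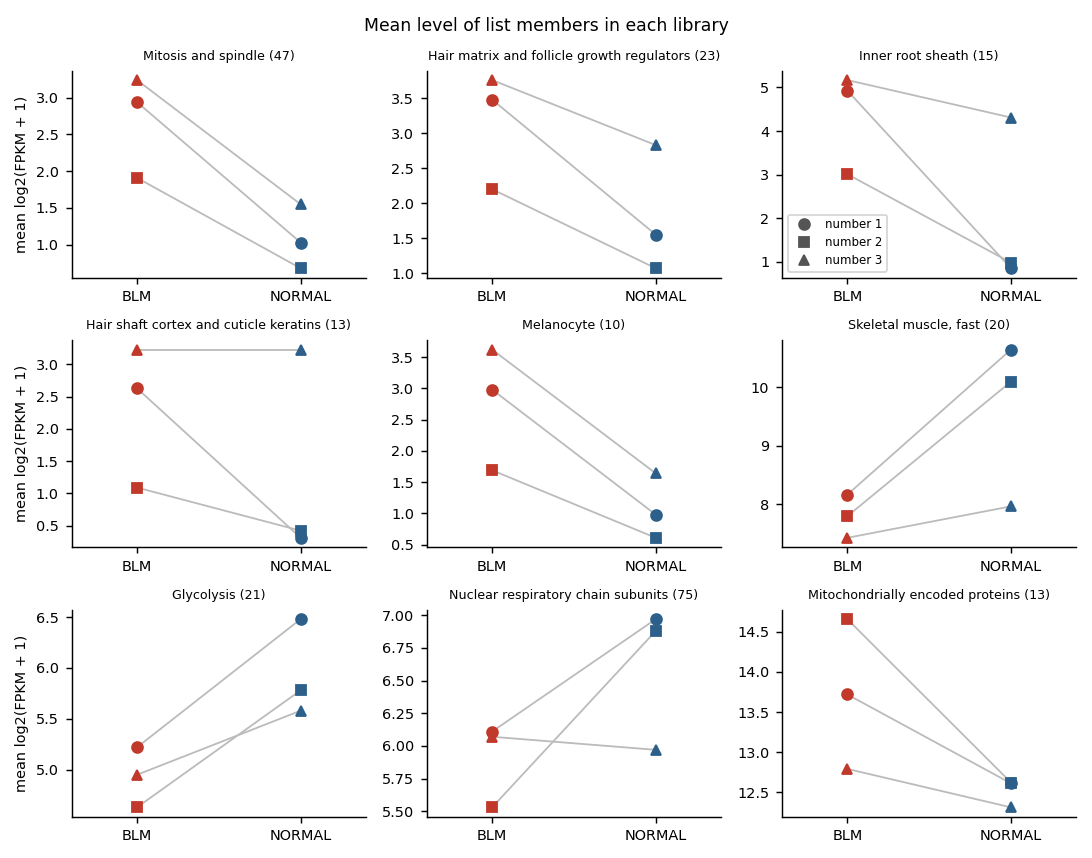
Mean log2(FPKM + 1) over the tested members of 9 lists in each library, BLM at the left and NORMAL at the right of each panel, with a line joining libraries of the same number; the vertical scale differs between panels and does not start at 0. In the hair lists NORMAL 3 lies near the BLM libraries (cortex and cuticle keratins 3.23 in BLM 3 and 3.23 in NORMAL 3), while for mitosis all BLM means, 1.91 to 3.24, lie above all NORMAL means, 0.68 to 1.55.

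Hedgehog signalling runs from the ligand Shh through its receptor Ptch1 to the factor Gli1, and Ptch1 and Gli1 are themselves targets of the pathway. Of 18 tested members 17 were higher (median 0.63), and Shh, Gli1 and Scube1 were among those that rose. Gli1 had 30.5, 7.91 and 32.1 FPKM in BLM against 1.68, 0.26 and 7.26 FPKM in NORMAL. Scube1, which helps release the ligand, had 2.30, 1.33 and 2.09 FPKM in BLM and 0.08, 0.02 and 0.15 FPKM in NORMAL. Every BLM library was above every NORMAL library for Gli1. Of the 18 members, 3 entered the test only through BLM. Shh and Scube1 were among them, so their groups could not overlap. Ptch1 did not overlap either, at 6.47, 1.75 and 4.53 FPKM in BLM and 0.65, 0.49 and 1.34 FPKM in NORMAL, but did not pass (adjusted p = 0.084 in the paired test).

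Among 14 tested WNT ligands and R-spondins, 8 were higher and Wnt10b alone rose, with 24.4, 7.31 and 22.8 FPKM in BLM against 1.49, 0.73 and 3.83 FPKM in NORMAL. Wnt5a, a ligand of non-canonical signalling, had 7.43, 2.31 and 4.39 FPKM in BLM and 0.85, 0.61 and 1.52 FPKM in NORMAL without passing. Of 23 tested inhibitors and targets of WNT, 22 were higher (median 0.51). Wif1, a secreted inhibitor made in the dermal papilla, rose by 2.23 ± 0.34, with 9.61, 2.81 and 22.0 FPKM in BLM and 0.84, 0.33 and 2.69 FPKM in NORMAL. Kremen2, a receptor of the inhibitor Dkk1, rose by 1.82 ± 0.33; it was named after its values were seen. In the dermal papilla and sheath list 11 of 14 tested were higher (median 0.71). Nog, a BMP antagonist, ran the other way, with 3.86, 0.89 and 1.84 FPKM in BLM and 8.60, 6.01 and 5.29 FPKM in NORMAL, and it did not pass (adjusted p = 0.095 in the paired test).

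Of the MYC family, Mycn differed most. It had 18.2, 5.28 and 23.0 FPKM in BLM against 0.91, 0.44 and 0.78 FPKM in NORMAL, so that NORMAL 3 stood with the other NORMAL libraries, and it rose by 3.07 ± 0.37 (adjusted p = 0.0195 in the paired test). Mycn entered the test only through BLM, so its groups could not overlap. Mycl rose by 1.67 ± 0.32, with overlapping groups. Myc itself had 16.5, 7.00 and 18.7 FPKM in BLM and 8.91, 6.59 and 13.7 FPKM in NORMAL (log2 change 0.44 ± 0.52). Slc7a5, which carries large neutral amino acids, rose by 2.09 ± 0.32, and Etv4, an ETS factor downstream of FGF signalling, by 2.30 ± 0.40; both were named after their values were seen.

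Melanocyte genes were mostly higher. Of 10 tested, 8 were higher (median 1.88) and 5 rose, all tied to melanosomes: Tyrp1, Dct, Mlana, Pmel and Gpnmb. Dct, dopachrome tautomerase, had 15.8, 3.41 and 29.9 FPKM in BLM and 0.34, 0.20 and 0.91 FPKM in NORMAL, and rose by 3.18 ± 0.42. Pmel, which forms the fibrils on which pigment is laid, had 8.30, 2.10 and 39.0 FPKM in BLM and 0.67, 0.41 and 1.67 FPKM in NORMAL. All BLM libraries were above all NORMAL libraries for these 5, which the filter fixed in advance for Tyrp1 and Dct. Mitf, the master regulator of the lineage, had 1.13, 2.65 and 4.83 FPKM in BLM and 2.68, 2.59 and 6.08 FPKM in NORMAL, and did not pass (log2 change -0.35 ± 0.52). Tyr, tyrosinase, was below the filter, with 1.38, 0.43 and 4.5 FPKM in BLM and 0.01, 0.00 and 0.01 FPKM in NORMAL. Edn3, a ligand that melanocytes need, rose by 1.83 ± 0.33 and was not on the list. It entered the test only through BLM. The 10 untested members failed the filter, and Tyrp1 and Dct passed it only through BLM, so these counts describe the members that passed and not the list as a whole.

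Genes of the resting follicle did not rise with these. In the bulge list 12 of 22 were higher, with a median of 0.05 that was -0.16 with equal totals. Krt15, a bulge and basal keratin, had 833, 291 and 928 FPKM in BLM and 1308, 367 and 2700 FPKM in NORMAL (log2 change -0.84 ± 0.73). Aqp4, a water channel, fell by 1.78 on the log2 scale, with 0.99, 0.52 and 0.33 FPKM in BLM against 8.69, 5.58 and 1.58 FPKM in NORMAL (adjusted p = 0.0465 in the paired test). It entered the test only through NORMAL and so had to be lower in BLM. Its NORMAL values followed the order of the muscle shares, 18.5, 11.5 and 2.99%, and a link with muscle was not tested. Cd34, a bulge marker that endothelium also makes, had 6.84, 9.27 and 10.5 FPKM in BLM and 12.2, 19.3 and 18.5 FPKM in NORMAL, without passing. Igfbp5 was likewise lower in every BLM library, at 10.4 to 17.3 FPKM against 24.7 to 52.0 FPKM in NORMAL, without passing.

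Metallothioneins, small cysteine-rich proteins that bind zinc and copper, formed a further group. Mt2 had 1960, 797 and 2023 FPKM in BLM and 250, 248 and 156 FPKM in NORMAL. Its lowest BLM library was above its highest NORMAL library, and NORMAL 3 was the lowest of all. Mt2 rose by 2.78 ± 0.49 (adjusted p = 0.0385 in the paired test, 0.185 without the block). Mt1 had 533, 215 and 520 FPKM in BLM and 90.3, 101 and 53.2 FPKM in NORMAL, with the same order but no pass (adjusted p = 0.0636 in the paired test). Mt3, best known from brain, was low, at 5.04, 2.95 and 3.63 FPKM in BLM and 1.53, 0.37 and 0.87 FPKM in NORMAL. Mt4, made in stratified epithelium, overlapped, with 119, 26.5 and 167 FPKM in BLM and 41.1, 16.6 and 79.3 FPKM in NORMAL. Unlike the hair genes, Mt1 and Mt2 were lowest in NORMAL 3. The zinc importer Slc39a10 rose by 2.20 ± 0.37, at 17.6, 4.85 and 20.3 FPKM in BLM and 1.22, 1.01 and 4.30 FPKM in NORMAL. The zinc exporter Slc30a1 had 13.4, 3.03 and 17.5 FPKM in BLM and 1.20, 1.62 and 5.04 FPKM in NORMAL, without passing; both transporters were named after their values were seen.

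**Figure D5:**
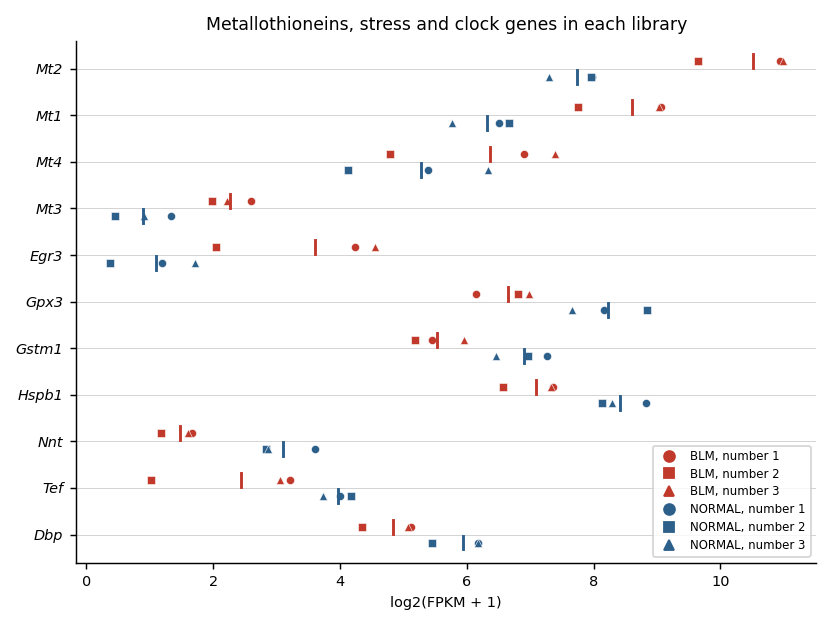
Levels of metallothioneins and of stress and clock genes in each library, as log2(FPKM + 1) on the horizontal axis, with BLM in red above NORMAL in blue, symbols for the library number and vertical bars for group means. Mt2, Mt1 and Mt3 lie higher in every BLM library (Mt2 at 797 to 2023 FPKM against 156 to 250 FPKM), and Gpx3, Gstm1, Hspb1, Nnt, Tef and Dbp lie lower in every BLM library.

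The oxidative stress list as a whole, which includes Mt2, leaned the other way. Of 28 tested members 21 were lower (median -0.46), and in 9 all BLM libraries lay below all NORMAL libraries (32.1%, against 7.65% of all genes). Gpx3, the secreted glutathione peroxidase, had 70.1, 111 and 126 FPKM in BLM and 285, 459 and 202 FPKM in NORMAL, and Gstm1, a glutathione transferase, had 42.8, 35.3 and 60.8 FPKM in BLM and 153, 124 and 86.6 FPKM in NORMAL. None of the lower members passed. Outside the list, Nnt, the mitochondrial transhydrogenase that makes NADPH, fell by 1.62 on the log2 scale, with 2.18, 1.27 and 2.03 FPKM in BLM against 11.2, 6.14 and 6.27 FPKM in NORMAL (adjusted p = 0.0474 in the paired test). Part of Nnt is deleted in the C57BL/6J substrain, and whether the groups shared a substrain cannot be told from the sources used here. Egr3, an immediate early gene, rose by 2.52 ± 0.36, with 17.9, 3.14 and 22.4 FPKM in BLM against 1.29, 0.29 and 2.27 FPKM in NORMAL. The list it belongs to had 6 of 23 tested members higher.

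Genes of the response to DNA breaks moved in no common direction. Of 22 tested repair genes 13 were higher, with a median of 0.16 that was -0.09 with equal totals; 1 rose and 1 fell. H2ax, the histone variant that is phosphorylated at breaks and that is also made in S phase, rose by 2.18 ± 0.37, with 77.6, 21.5 and 98.7 FPKM in BLM and 10.9, 6.13 and 21.2 FPKM in NORMAL. Rnf168, the ubiquitin ligase that marks chromatin at breaks, fell by 1.57 on the log2 scale, with 0.37, 0.30 and 0.77 FPKM in BLM against 3.19, 2.27 and 5.07 FPKM in NORMAL. It entered the test only through NORMAL and so had to be lower in BLM. Of 25 tested p53 targets 16 were higher (median 0.17, and -0.12 with equal totals). The 2 members that rose, Psrc1 and Ckap2, both act at the mitotic spindle. Pidd1, a p53 target that was not on the list, also rose, with 8.24, 2.54 and 7.18 FPKM in BLM and 0.95, 0.35 and 2.13 FPKM in NORMAL (adjusted p = 0.0462 in the paired test); it was named after its values were seen. Cdkn1a (p21) had 35.0, 19.8 and 25.5 FPKM in BLM and 16.7, 12.1 and 27.4 FPKM in NORMAL. Mdm2 had 2.31, 6.73 and 4.41 FPKM in BLM and 6.81, 5.54 and 14.3 FPKM in NORMAL. Ccng1 was lower, at 30.9, 27.6 and 14.7 FPKM in BLM against 164, 121 and 28.8 FPKM in NORMAL, without passing; it is a gene that muscle also expresses. Blmh, which inactivates bleomycin, had 10.03, 3.42 and 13.1 FPKM in BLM and 6.80, 4.86 and 10.8 FPKM in NORMAL.

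Of the matrix, 1 collagen rose. Col15a1, a collagen of the basement membrane zone of vessels and muscle, had 6.41, 7.75 and 19.8 FPKM in BLM and 1.18, 1.23 and 4.68 FPKM in NORMAL, and rose by 1.87 ± 0.30 (adjusted p = 0.0308 in the paired test). The chief dermal collagens rested on BLM 3. Col1a1 had 22.7, 28.8 and 157 FPKM in BLM against 20.6, 23.3 and 34.7 FPKM in NORMAL, Col1a2 had 8.84, 13.0 and 50.1 FPKM in BLM and 10.5, 12.1 and 18.6 FPKM in NORMAL, and Col3a1 had 10.5, 22.6 and 63.8 FPKM in BLM and 19.6, 33.5 and 35.8 FPKM in NORMAL. Col1a2 was lower in BLM without BLM 3 (log2 change -0.29), and Col3a1 was higher after quantile normalization (0.07) and without BLM 1 (0.40). Of 13 tested dermal collagens 10 were higher (median 0.35). Genes that modify and cross-link collagen were higher in 9 of 26 (median -0.21), and matrix proteases and their inhibitors in 4 of 14 (median -0.28), and none of either list passed.

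Tagln (SM22), an actin-binding protein of smooth muscle and myofibroblasts, rose by 2.45 ± 0.41, with 16.9, 29.4 and 42.6 FPKM in BLM and 1.35, 2.57 and 16.5 FPKM in NORMAL. Acta2 had 19.0, 37.97 and 47.6 FPKM in BLM and 5.25, 7.53 and 41.4 FPKM in NORMAL, so that NORMAL 3 lay among the BLM libraries, and it did not pass. Of the 18 tested contractile genes 12 were higher (median 0.13, and -0.16 with equal totals), while 4 lay wholly below (22.2%, against 7.65% of all genes). Among these 4 was Tpm1, which skeletal muscle also makes (154 to 198 FPKM in BLM, 205 to 1058 FPKM in NORMAL). Hair follicles and vessels hold contractile cells too. Of 20 tested fibroblast genes 6 were higher (median -0.22). Dpt, a matrix protein of fibroblasts, had 32.7, 102 and 88.7 FPKM in BLM and 103, 183 and 181 FPKM in NORMAL, wholly below and without passing. Of 39 tested genes of TGF-β and BMP signalling 22 were higher (median 0.06, and -0.12 with equal totals) and none passed.

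Of 11 tested endothelial genes 10 were higher (median 0.99), and none passed. Sox18, a factor of vessels that also acts in the dermal papilla, had 6.55, 8.23 and 5.55 FPKM in BLM and 1.35, 1.34 and 2.11 FPKM in NORMAL (adjusted p = 0.0537 in the paired test). Plvap, which forms the diaphragms of fenestrated capillaries, had 6.14, 15.9 and 15.3 FPKM in BLM against 1.87, 0.90 and 8.68 FPKM in NORMAL. In this list BLM 2 was not the lowest BLM library, unlike in the hair and mitosis lists. Gfra3, a receptor of the glial ligand artemin, rose by 1.73 ± 0.27 among the genes of nerve, at 3.16, 2.27 and 3.27 FPKM in BLM and 0.06, 0.00 and 0.51 FPKM in NORMAL. It entered the test only through BLM.

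Macrophage genes leaned lower. Of 19 tested 18 were lower in BLM (median -0.68), and none passed. In 4 members, Cd14, Arg1, Cd209f and Mgl2, all BLM libraries lay below all NORMAL libraries (21.1%, against 7.65% of all genes). Mgl2, a C-type lectin, had 1.49, 7.36 and 4.26 FPKM in BLM and 9.48, 19.5 and 10.4 FPKM in NORMAL, and Arg1, arginase, had 6.26, 10.5 and 5.26 FPKM in BLM and 14.2, 28.2 and 12.2 FPKM in NORMAL. Mrc1 (CD206) had 1.02, 4.97 and 0.62 FPKM in BLM against 4.71, 8.74 and 7.16 FPKM in NORMAL, and overlapped. The general macrophage gene Cd68 overlapped, with 11.4, 32.1 and 17.5 FPKM in BLM and 16.5, 23.4 and 20.5 FPKM in NORMAL, and its direction changed under quantile normalization (0.10). BLM 1 was the lowest library for Mgl2 and Cd68. S100a8, the 1 neutrophil gene of 13 that passed the filter, did so only through BLM and so had to be higher there. It rose by 1.63 ± 0.29, at 3.16, 1.23 and 4.93 FPKM in BLM and 0.00, 0.00 and 0.87 FPKM in NORMAL. Of the 13 neutrophil genes, 6 were listed at 0 in all 6 libraries, and keratinocytes also make S100a8.

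From the study's assays by PCR, blot or staining and its antibody list, 14 genes were followed here. The study's methods give 14 days from treatment to skin collection, while these libraries follow 7 days of PBS. Its blots and staining read protein. Blots of β-catenin and LEF1 are reported only from cultured fibroblasts, and HES1 is named only among the antibodies. The values below are thus not a like comparison. Of the 14 genes, 9 passed the filter here and none passed a test. Adgre1 (F4/80) had 0.97, 6.05 and 3.26 FPKM in BLM and 1.95, 3.96 and 5.42 FPKM in NORMAL. Fn1, fibronectin, had 2.39, 5.30 and 1.38 FPKM in BLM and 1.39, 11.4 and 5.31 FPKM in NORMAL, and Tgfb1 had 3.81, 3.26 and 5.58 FPKM in BLM and 3.57, 2.38 and 9.55 FPKM in NORMAL. Of the WNT and Notch genes, Ctnnb1 (β-catenin) had 82.1, 43.9 and 99.3 FPKM in BLM and 45.3, 48.2 and 138 FPKM in NORMAL, Lef1 had 1.08, 0.36 and 8.58 FPKM in BLM and 0.14, 0.00 and 1.63 FPKM in NORMAL, and Hes1 had 26.1, 12.9 and 37.4 FPKM in BLM and 18.3, 13.1 and 38.6 FPKM in NORMAL. The direction of Ctnnb1 and Hes1 changed with equal totals (-0.22 and -0.15). Il6 reached at most 0.04 FPKM in BLM and 0.02 FPKM in NORMAL, Il10 at most 0.91 and 0.66 FPKM, Tnf 1.17 and 0.11 FPKM, Cd4 0.36 and 0.37 FPKM and Cd8a 0.00 and 0.07 FPKM, in BLM and NORMAL in that order, all below the filter.

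Of the 12 leading genes in each direction, several fall outside these groups. Among those that rose, Cldn10, a claudin that forms ion pores in tight junctions, had 12.49, 4.87 and 12.47 FPKM in BLM and 0.84, 0.00 and 0.91 FPKM in NORMAL. Pif1, a DNA helicase, had 7.14, 2.82 and 6.93 FPKM in BLM and 0.13, 0.00 and 0.74 FPKM in NORMAL. Lgals12, a galectin best known from fat cells, had 10.7, 3.2 and 9.55 FPKM in BLM and 0.04, 0.67 and 0.52 FPKM in NORMAL. For these 3 the libraries of NORMAL lay close together, NORMAL 3 included. All 3 genes entered the test only through BLM, so their groups could not overlap. Mup7, a major urinary protein, had 4.76, 9.27 and 8.75 FPKM in BLM and 1.04, 0.00 and 0.18 FPKM in NORMAL; the Mup genes are near-identical copies, so its value is uncertain.

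Among those lower in BLM, Lsm12, an RNA-binding protein of the LSM family, was even across the NORMAL libraries, with 0.36, 1.93 and 2.79 FPKM in BLM against 17.9, 15.2 and 17.2 FPKM in NORMAL. Its log2 change of -2.84 ± 0.38 passed the paired test (adjusted p = 0.0195, and 0.185 without the block). Rbfox2, a splicing factor, had 0.84, 3.38 and 0.56 FPKM in BLM and 8.91, 7.59 and 10.4 FPKM in NORMAL, and fell by 2.09. Rdx (radixin), which ties actin to the membrane, had 0.66, 9.26 and 1.4 FPKM in BLM and 22.8, 17.9 and 21.5 FPKM in NORMAL, just short of passing (adjusted p = 0.0501 in the paired test). In these 3 genes NORMAL 3 stood with the other NORMAL libraries. In Itm2a, Pla1a, Efhd1 and Smco1, which fell, NORMAL 3 was the NORMAL library nearest to BLM: Itm2a, a membrane protein of muscle and cartilage, had 10.4, 9.24 and 8.84 FPKM in BLM and 101, 79.9 and 22.0 FPKM in NORMAL. Inmt, an indole methyltransferase, fell by 2.48, with 1.6, 6.98 and 12.3 FPKM in BLM and 24.4, 71.0 and 25.4 FPKM in NORMAL.

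Muscle and energy genes were the lowest lists as a whole. All 20 tested fast muscle genes were lower (median -1.89), and none passed either test. The median was -2.38, -2.52 and -0.53 within pairs 1, 2 and 3. With all 6 libraries, BLM lay wholly below NORMAL in only 2 of the 20, where 7.65% of all genes did. Without NORMAL 3, 18 of the 20 passed the unpaired test, where 262 of 12053 genes passed as lower. The median of the list was then -2.76. NORMAL 3 had the lowest muscle share of the NORMAL libraries (2.99%), so its removal widened the difference. Acta1, skeletal actin, had 3571, 2585 and 1691 FPKM in BLM and 19396, 11012 and 2401 FPKM in NORMAL. Mybph, a myosin-binding protein of fast fibres that stands on neither muscle list, fell by 2.53, with 13.4, 16.2 and 4.08 FPKM in BLM against 114, 110 and 18.2 FPKM in NORMAL (adjusted p = 0.025 in the paired test). Of 21 glycolysis genes 19 were lower (median -1.30), among them Aldoa, the muscle aldolase, at 1165, 844 and 399 FPKM in BLM and 5036, 3601 and 1002 FPKM in NORMAL. NORMAL 3 thus lay below BLM 1 in Aldoa. The muscle shares given above are sums over the muscle lists, so they move with those lists by construction. The part of muscle content in the other results was not tested.

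Respiratory chain genes of the nucleus and of the mitochondrion differed in sign. Of 75 nuclear subunits 73 were lower in BLM (median -0.70), with medians of -0.86, -1.39 and 0.06 within the pairs. All 13 mitochondrially encoded proteins were higher (median 1.18), with medians of 1.12, 2.01 and 0.48 within the pairs, and 8 lay wholly above (61.5%, against 2.74% of all genes). The direction of both list medians was kept under each scaling tried. mt-Nd5, a subunit of complex I, had 4463, 8835 and 2117 FPKM in BLM and 2040, 1534 and 1196 FPKM in NORMAL. BLM 2 was the highest library, and no member of either list passed.

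Clock genes were lower in 15 of 17 tested (median -0.47), and none passed. Tef and Dbp, related factors whose transcripts cycle over the day, were apart in all libraries. Tef had 8.30, 1.03 and 7.32 FPKM in BLM and 15.1, 17.02 and 12.2 FPKM in NORMAL, and Dbp had 33.6, 19.4 and 32.5 FPKM in BLM and 71.3, 42.8 and 71.7 FPKM in NORMAL. The hour at which skin was taken was not given in the sources used here. Hspb1, a small heat shock protein, had 164, 94.1 and 159 FPKM in BLM and 451, 279 and 313 FPKM in NORMAL, without passing, and 18 of 20 tested chaperone genes were lower (median -0.37). Without both libraries numbered 2, the median of the chaperone list was 0.04.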

How the data were processed

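Skin RNA of 3 BLM and 3 NORMAL libraries was compared. Per the labels, poly(A) RNA was made into strand-specific libraries and sequenced as paired reads, and, by the submitters' processing notes, the authors trimmed with cutadapt, aligned to mm9 with HISAT2 2.0.4 and estimated FPKM with StringTie 1.3.4d. The deposited FPKM were used as given; counts were not used here. From the steps of FPKM in single-transcript pseudogenes, depth was estimated at 12.8 to 24.9 M fragments, within bounds set for the search, and a multiple could match too. Gene positions are from GENCODE M21 (GRCm38), matched for 55141 identifiers.

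Genes at 1 FPKM or more in 3 or more libraries were tested with limma 3.58.1 (R 4.3.3, mean-variance trend) on log2(FPKM + 1), two-sided, with Benjamini-Hochberg adjustment at 0.05. Libraries were paired by title number, since the deviations from group means of each pair correlated across genes (r = 0.192, 0.611 and 0.487). BLM and NORMAL libraries with different numbers had r from -0.509 to 0.146. The pairing rests on the data, not on a stated shared batch. The fit was tested on simulated libraries with independent noise and with changes placed only in genes of higher mean level. These held no deviations shared by a pair, so the simulation could not test the pairing or the calls of low genes. Alternatives were other scalings, a pseudocount of 0.1, no filter or 5 FPKM, other variance models, all 9 libraries, the block, and each library left out.

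The groups, members and 53 gene lists were chosen with earlier results of these data known. Named genes were first 12 protein-coding genes in each direction. These had the smallest p among genes whose groups did not overlap and whose higher group averaged 5 FPKM or more. Of each list described, members that passed with or without the block, up to 4 others and its defining markers were named. To these came 14 genes from the assays or the antibody list of the study. Promoters were read from RefSeq (GRCm38.p6); Shh and Gli1 were not matched. Among the leading genes, 1 is not reported here.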

Additional observations from a re-analysis of the deposited data

How the results depend on the processing

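No gene passed without the block; 19 passed with equal totals, 1 with quantile normalization, 1 with median-ratio scaling, 2 with all 9 libraries in the model, 155 with the replicate block and 449 with the block and the same total. Leaving out 1 library gave 0 to 553 genes, 553 without NORMAL 3, and leaving out 1 pair under the block gave 0 to 957, 0 without pair 1, 1 without pair 2 and 957 without pair 3. At the study's thresholds (847 genes), the count was 1256 with the replicate block, 449 with a filter at 5 FPKM, 1643 with the block and the same total and 530 without both libraries numbered 2; leaving out 1 library gave 363 (NORMAL 1) to 1908 (NORMAL 3), with 499 without BLM 1 and 518 without BLM 3, and leaving out 1 pair gave 624 to 1859. Causes were not tested beyond the smaller number of libraries or genes in some fits. Of 3096 values of named genes under alternatives, 36 changed direction, in 9 genes; with no call to begin with, none could be lost. Of the 155 genes that passed with the block, 155 also passed with equal totals, 0 without pair 1, 1 without pair 2 and 64 without pair 3, where fewer were tested (99, 101 and 64). After rescaling to the same total, Ctnnb1 was at -0.22, Hes1 at -0.15 and Blmh at -0.13, with the block or not, and after rescaling without mitochondrial, ribosomal and muscle transcripts they were at -0.09, -0.03 and -0.03; under quantile normalization Col3a1 was at 0.07 and Cd68 at 0.10. Leaving out 1 library gave -0.70 to 0.02 for Mitf, -0.29 to 0.90 for Col1a2, -0.85 to 0.40 for Col3a1, -0.47 to 0.24 for Cd68, -0.44 to 0.38 for Tgfb1, -0.20 to 0.60 for Ctnnb1, -0.19 to 0.56 for Hes1, -0.65 to 0.27 for Adgre1 and -0.22 to 0.62 for Blmh. Under the block, Col1a2 was at -0.07 and Tgfb1 at 0.20 without pair 3, and Col3a1 was at 0.14, Cd68 at 0.11, Ctnnb1 at -0.30, Hes1 at -0.03 and Blmh at -0.07 without pair 1.

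With 3 libraries a side and no counts, the precision for low genes is not known.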

Other observations

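The lists of sebaceous, epidermal, junction and fat genes held no gene that passed either test. Sebaceous and lipid synthesis genes were higher in 23 of 29 tested (median 0.46), with medians of 1.32, 0.48 and 0.10 within pairs 1, 2 and 3. Interfollicular epidermal genes were higher in 20 of 31 (median 0.41), with medians of 0.79, 0.02 and -0.13 within the pairs. Desmosome and junction genes were higher in 17 of 24 (median 0.22, and -0.04 with equal totals). Adipocyte genes were higher in 15 of 24 (median 0.11, and -0.15 with equal totals), and the summed level of that list was 884, 935 and 1599 FPKM in BLM and 3072, 1950 and 1438 FPKM in NORMAL.

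Ggt1, which cleaves extracellular glutathione, rose in the paired test by 2.56 ± 0.46, with 15.5, 3.79 and 14.7 FPKM in BLM and 0.02, 0.00 and 4.91 FPKM in NORMAL. Ifi205, an interferon-inducible gene of a family of close copies, fell by 1.82, with 3.89, 14.4 and 2.04 FPKM in BLM and 18.7, 46.8 and 9.81 FPKM in NORMAL. Both were named after their values were seen.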
